A study of Mus musculus with 17 samples.

Results

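Striatal marker genes were followed in RNA from mouse hippocampus: Drd1, Drd2, Adora2a, Ppp1r1b, Rgs9, Penk, Tac1, Pde10a and Syndig1l. These 9 genes, of 38355 gene identifiers counted, were listed by name because they are strongly expressed by projection neurons of the striatum, which lies close to the hippocampus in the mouse brain, and they served as a measure of neighbouring tissue. All 9 were found in the count files. Each was examined in all 17 libraries.

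The libraries held polyA RNA of hand-dissected hippocampi from untreated wild type mice of strain C57BL/6J, whose sex the labels do not give. In a first experiment, single-end libraries were made from 3-month-old mice (3M, 5 libraries) and 24-month-old mice (24M, 6 libraries). In a second experiment, paired-end libraries were made from 3-month-old mice (3 libraries) and 29-month-old mice (29M, 3 libraries). Age and library type vary together, since the 24M group holds single-end and the 29M group paired-end libraries alone. The comparisons asked whether the marker genes differ between aged and young hippocampus, and no 3M library was used in both. The labels number the samples of a group without tying them to animals, so the p-values measure the spread between these samples.

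The 3M single-end libraries held 19144461 to 28438296 counts on genes (median 20289215) and the 24M libraries 9213474 to 19756411. In the second experiment the totals were 10977976 to 15054972 counts at 3M and 10991389 to 13563541 at 29M. Levels are given in counts per 1000000 counts on genes (CPM). Among the 136 pairs of libraries, 24M replicates 1 and 4 differed by less than the sampling noise. Their mean squared difference over its counting variance was 0.406, where counting noise alone gives about 1, and the next lowest pair had 1.23. Their rounded mean therefore entered as 1 sample. This makes 5 samples in the 24M group and 16 in all, and the ranges and medians of the 24M group are over these 5 samples.

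A second library stood apart with regard to the marker genes themselves. In 3M single-end replicate 4 the CPM of the 9 genes summed to 638.9, while the sums in the other 16 libraries lay between 228.7 and 281.2. For this reason edgeR's results for the marker genes at 24M are given with and without this library, while DESeq2 was run with all 3M libraries only.

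Projection neurons of the striatum use GABA as their transmitter and fall into a pair of classes. Neurons of the direct pathway carry the dopamine receptor D1 and release substance P, while neurons of the indirect pathway carry the dopamine receptor D2 and an adenosine receptor and release enkephalin. D1 receptors raise and D2 receptors lower the amount of cyclic AMP in the cell, and the signal passes through protein kinase A, its target DARPP-32 and the transcription factor CREB to genes that include the neuropeptides. Several of these genes are also active at lower levels in hippocampal neurons.

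The CREB pathway acts on promoters through the cyclic AMP response element, whose short core, the letters CGTCA or, on the opposite strand, the letters TGACG, was searched in the 250 bases before each transcription start in RefSeq (GRCm38.p6). Both strands were searched, and these letters are also part of the longer full element. The letters were found before 17.8% of the 32851 starts in the table. Of the 9 genes, 5 had an entry, namely Drd1, Drd2, Pde10a, Rgs9 and Tac1, with 7 starts in all, and 1 start held the letters, that of Tac1, at 2 places. The windows of a direct pathway gene, Tac1 (chr6:7554811-7555060, plus strand), and an indirect pathway gene, Drd2 (chr9:49340153-49340402, plus strand), are shown to compare a window with and without the letters, which are in capitals.
Tac1: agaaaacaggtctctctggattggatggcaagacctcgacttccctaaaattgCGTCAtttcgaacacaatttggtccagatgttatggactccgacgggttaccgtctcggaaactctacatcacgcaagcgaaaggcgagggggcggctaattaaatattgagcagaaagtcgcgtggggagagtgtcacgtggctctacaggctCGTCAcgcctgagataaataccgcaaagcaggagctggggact
Drd2: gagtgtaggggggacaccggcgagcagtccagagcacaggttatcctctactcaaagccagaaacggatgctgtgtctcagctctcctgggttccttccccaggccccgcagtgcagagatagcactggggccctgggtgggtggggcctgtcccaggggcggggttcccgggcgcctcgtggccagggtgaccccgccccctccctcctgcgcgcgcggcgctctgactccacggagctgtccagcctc
A match in a window describes the sequence only. The windows follow the starts of RefSeq, while the gene coordinates given below are from GENCODE. By GENCODE Tac1 starts at 7554879, inside its window, so part of that window lies within the gene. A window of Drd1 and the windows of Pde10a lie wholly within those genes by GENCODE.

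**Figure D1:**
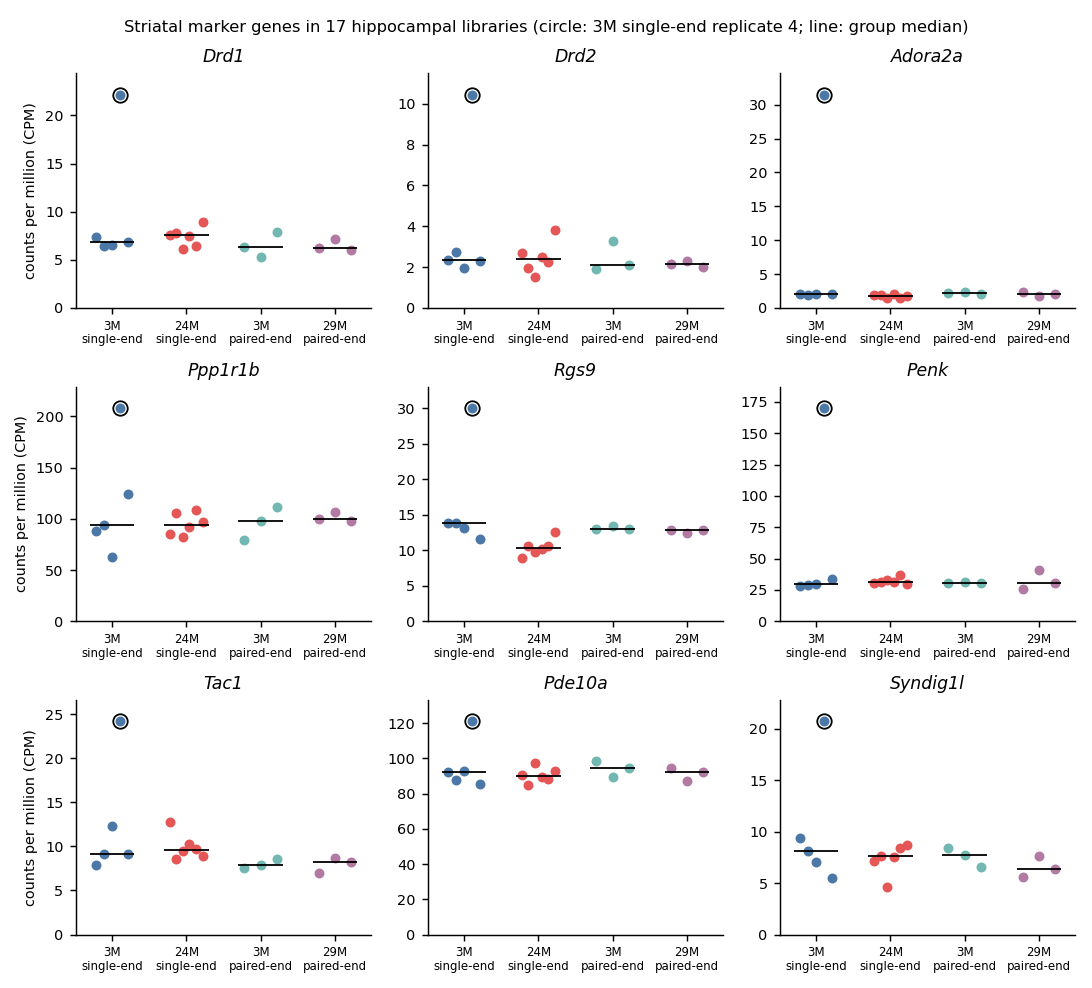
Level of each striatal marker gene in CPM (y axis, from 0, scaled per gene) in the 17 hippocampal libraries, grouped by age and library type on the x axis, with each point a library and each line a group median. The circled point is 3M single-end replicate 4, which lay highest of all libraries for all 9 genes. The other points of each gene overlap between an aged group and the 3M group of its library type, except for Rgs9 at 29M.

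Among the receptors, Adora2a (ENSMUSG00000020178, chromosome 10, 75316877 to 75334784 of GRCm38), which encodes the adenosine receptor of indirect pathway neurons, gave the widest contrast. In the 3M single-end libraries 1 to 5 its level was 2.01, 1.88, 2.11, 31.5 and 2.07 CPM. The 24M samples ranged from 1.47 to 1.95 CPM with a median of 1.74. Thus a single library, 3M replicate 4 with 615 counts, lay at 15.5 times the median of the other 4 libraries of its group, and the remaining 3M values overlapped with the 24M values. In the paired-end libraries Adora2a was at 2.16, 2.32 and 2.004 CPM at 3M and 2.31, 1.82 and 1.99 CPM at 29M, and these groups overlapped as well.

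In the test of 24M against 3M the log2 fold change of Adora2a was -2.19 (standard error 0.85, adjusted p = 0.125 by the quasi-likelihood test of edgeR, with the adjustment of Benjamini and Hochberg over all genes tested). Without 3M replicate 4 it was -0.25 (standard error 0.16, adjusted p = 0.364, same test). Adora2a was therefore not called at 24M in either fit, where a call needed an adjusted p of at most 0.05 and a log2 fold change of at least 0.5 in size. In the 29M comparison it was -0.08 (standard error 0.22, adjusted p = 0.885, same test). In such bulk samples, fewer cells of a type and less RNA per cell cannot be told apart.

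Drd1 (ENSMUSG00000021478, chromosome 13, 54051183 to 54055705), the dopamine receptor of direct pathway neurons, was at 7.39, 6.42, 6.54, 22.2 and 6.90 CPM in the 3M single-end libraries. At 24M it ranged from 6.07 to 8.90 CPM (median 7.52). Apart from replicate 4, which held 433 counts of Drd1 and lay at 3.30 times the median of the others, the 3M values fell within the range of the 24M values. The paired-end libraries had 6.30, 5.31 and 7.92 CPM at 3M and 6.24, 7.19 and 5.97 CPM at 29M. Its log2 fold changes were -0.43 at 24M (standard error 0.32, adjusted p = 0.42), 0.10 without replicate 4 (standard error 0.12, adjusted p = 0.647) and 0.01 at 29M (standard error 0.17, adjusted p = 0.982), all by edgeR's test.

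Drd2 (ENSMUSG00000032259, chromosome 9, 49340627 to 49408177), the dopamine receptor of indirect pathway neurons, was at 2.37, 2.72, 1.93, 10.45 and 2.32 CPM in the 3M single-end libraries. It ranged from 1.52 to 3.80 CPM at 24M (median 2.25). Again only replicate 4 was apart, with 204 counts and 4.46 times the median of the other 3M libraries. Drd2 was at 1.91, 3.25 and 2.10 CPM in the 3M paired-end libraries and at 2.14, 2.27 and 1.99 CPM at 29M. In the 3M paired-end libraries 1 and 3 these values rest on 23 counts each, so the interval for the first of them that covers counting error only (exact Poisson, 95%) runs from 1.21 to 2.86 CPM. The log2 fold change of Drd2 was -0.72 at 24M (standard error 0.46, adjusted p = 0.334), 0.02 without replicate 4 (standard error 0.22, adjusted p = 0.963) and -0.21 at 29M (standard error 0.25, adjusted p = 0.727) by edgeR's test.

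The second group of genes acts behind these receptors. Ppp1r1b (ENSMUSG00000061718, chromosome 11, 98348404 to 98357796) encodes DARPP-32, the phosphatase inhibitor that relays dopamine signals. Its levels of 88.2, 93.9, 63.0, 208.3 and 124 CPM in the 3M single-end libraries were the most variable of the 9 genes among the 4 libraries other than replicate 4, with a coefficient of variation of 27.2%. The 24M samples lay between 82.5 and 109 CPM (median 96.7), inside the range of those 4 libraries. The paired-end libraries had 78.9, 97.8 and 111 CPM at 3M and 100.2, 107 and 97.4 CPM at 29M. Replicate 4 was 2.29 times the median of the other 4 libraries of its group and 1.68 times the highest of the other samples. The log2 fold change was -0.25 at 24M (standard error 0.24), 0.07 without replicate 4 (standard error 0.15) and 0.09 at 29M (standard error 0.09), with adjusted p of 0.538, 0.805 and 0.642 in edgeR's test. The exons of Ppp1r1b overlap those of 1700003D09Rik on the other strand, and no source used here states the strand setting of the counting.

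Rgs9 (ENSMUSG00000020599, chromosome 11, 109225355 to 109298129) encodes a regulator that speeds up the inactivation of G proteins, with a splice form enriched in striatum. It was at 13.9, 13.8, 13.2, 30.1 and 11.6 CPM in the 3M single-end libraries and between 9.61 and 12.6 CPM at 24M (median 10.6). Thus 4 of the 5 24M samples lay below all 3M libraries, and the groups overlapped through 24M replicate 6. The log2 fold change was -0.63 (standard error 0.22, unadjusted p = 0.0139, adjusted p = 0.0987) with all 3M libraries and -0.31 (standard error 0.09, adjusted p = 0.0852) without replicate 4 in edgeR's test. DESeq2 gave -0.63 (adjusted p = 0.0389) and called it. The test of edgeR also called it with all 4 groups in 1 fit (adjusted p = 0.0388) or without 3M replicate 5 (adjusted p = 0.0373), so the call of Rgs9 at 24M depended on the tool, the model and the samples.

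In the paired-end libraries Rgs9 was at 12.9, 13.4 and 13.0 CPM at 3M and at 12.8, 12.5 and 12.9 CPM at 29M. All 29M libraries lay below all 3M libraries, yet by a mean difference of only -0.03 on the log2 scale (standard error 0.09; adjusted p = 0.883 by edgeR). Of the 15097 genes tested at 29M, 19.6% had groups that did not overlap, and Rgs9 was the 1 of the 9 marker genes among them. At 24M 6.53% of genes had groups that did not overlap, and 8.05% without replicate 4, with 0 of the 9 marker genes in both cases.

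Pde10a (ENSMUSG00000023868, chromosome 17, 8525372 to 8986648) encodes a phosphodiesterase that degrades cyclic AMP and cyclic GMP in striatal neurons. Its levels of 92.4, 87.7, 93.0, 121 and 85.6 CPM at 3M and 84.8 to 97.6 CPM at 24M (median 90.1) were the steadiest of the 9, with a coefficient of variation of 4.54% over the 15 samples other than replicate 4. It was also the gene with the smallest ratio in replicate 4, at 1.35. In the paired-end libraries it was at 98.5, 89.5 and 94.6 CPM at 3M and 94.6, 87.3 and 92.5 CPM at 29M. The log2 fold changes of Pde10a were -0.07 at 24M (standard error 0.08), 0.02 without replicate 4 (standard error 0.06) and -0.03 at 29M (standard error 0.05), with adjusted p of 0.62, 0.831 and 0.779 in edgeR's test.

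Of the neuropeptide genes, Penk (ENSMUSG00000045573, chromosome 4, 4133531 to 4138819) encodes the precursor of the enkephalins. It was at 27.9, 29.3, 29.6, 170.2 and 34.1 CPM in the 3M single-end libraries, so that replicate 4 held 3324 counts and 5.78 times the median of the others. The 24M samples lay between 29.6 and 37.0 CPM (median 31.3) and overlapped with the other 4 libraries. The paired-end libraries had 30.4, 31.4 and 30.2 CPM at 3M and 25.7, 40.5 and 30.9 CPM at 29M, with the 3M values inside the wider 29M range. The log2 fold change of Penk was -0.83 at 24M (standard error 0.46, adjusted p = 0.27), 0.11 without replicate 4 (standard error 0.08, adjusted p = 0.456) and 0.09 at 29M (standard error 0.13, adjusted p = 0.796) by edgeR's test. Its exons overlap those of A830012C17Rik on the other strand.

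Tac1 (ENSMUSG00000061762, chromosome 6, 7554879 to 7565834), the precursor of substance P whose promoter window is printed above, was at 7.84, 9.19, 12.3, 24.2 and 9.12 CPM in the 3M single-end libraries and between 8.61 and 11.5 CPM at 24M (median 9.46). Replicate 4 lay at 2.65 times the others, and without it the 24M samples fell inside the 3M range. In the paired-end libraries Tac1 was at 7.54, 7.90 and 8.56 CPM at 3M and 7.01, 8.73 and 8.18 CPM at 29M. Its log2 fold changes were -0.36, 0.01 without replicate 4 and 0.01 at 29M (standard errors 0.26, 0.13 and 0.13; adjusted p = 0.396, 0.98 and 0.988, edgeR).

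Syndig1l (ENSMUSG00000071234, chromosome 12, 84677277 to 84698831), also called Capucin for its caudate and putamen expression, encodes a membrane protein. It was at 9.35, 8.10, 7.07, 20.7 and 5.52 CPM in the 3M single-end libraries and between 4.66 and 8.68 CPM at 24M (median 7.63). Replicate 4 had 2.74 times the median of the other 4 libraries of its group, while the other values overlapped. The paired-end libraries had 8.37, 7.77 and 6.56 CPM at 3M and 5.55, 7.64 and 6.34 CPM at 29M. The log2 fold changes of Syndig1l were -0.47, -0.04 without replicate 4 and -0.22 at 29M (standard errors 0.31, 0.18 and 0.16; adjusted p = 0.352, 0.911 and 0.526, edgeR). Its exons overlap those of Gm48573 on the other strand.

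**Figure D2:**
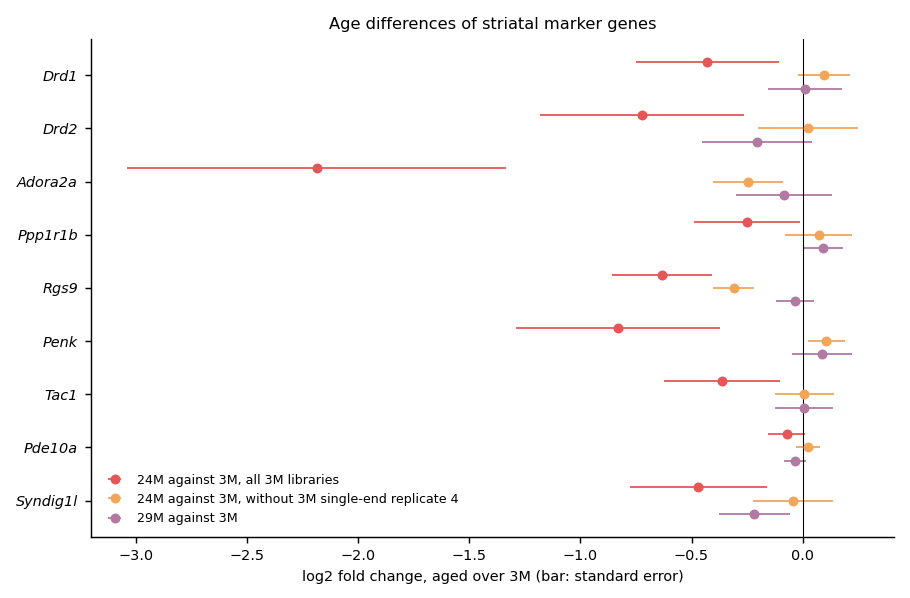
Log2 fold change of each striatal marker gene (x axis, aged over 3M, with the standard error as a bar) for 24M against all 5 3M single-end libraries, for 24M against these without replicate 4, and for 29M against 3M. With replicate 4 all 9 points of 24M lie below 0, from -2.19 for Adora2a to -0.07 for Pde10a, while without it they lie between -0.31 and 0.11.

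Counted over the 9 genes, edgeR's quasi-likelihood test called 0 at 24M, where 1.98% of the 15683 genes tested were called. An unadjusted p under 0.05 was reached by 2 of them, Adora2a and Rgs9, beside 26.1% of all genes, and DESeq2 called 1, Rgs9, beside 2.5% of the genes for which it gave an adjusted p. DESeq2 gave no p for Adora2a and Penk, as it withholds a p from genes with an outlying count. The log2 fold changes of all 9 genes were below 0 with a median of -0.47, and the median over all genes tested was -0.00319. Without 3M replicate 4, edgeR called 0 of 9 (1.23% of 15815 genes), 1 had an unadjusted p under 0.05, 3 of 9 lay below 0, and the median was 0.02. The sign that the 9 genes had in common at 24M was thus lost for 6 of them when a single 3M library was left out.

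At 29M, edgeR called 0 of 9 marker genes, where 1.45% of 15097 genes were called, and 0 of 9 had an unadjusted p under 0.05, beside 17.3% of all genes. DESeq2 called 0 of 9 as well, beside 1.07% of all genes. The median log2 fold change was -0.03, and 5 of 9 genes lay below 0. The standard errors ranged from 0.05 for Pde10a to 0.25 for Drd2, and the size of difference detectable with 3 libraries a group was not tested. The 29M effect minus the 24M effect was above 0 for all 9 genes, with a median of 0.43, but edgeR's test of this difference called 0 of 9 and 0% of 16055 genes. Of the 9, 0 had an unadjusted p under 0.05, DESeq2 called 0 as well, and the smallest adjusted p among the 9 was 0.532 for Rgs9. Without 3M single-end replicate 4 the difference was above 0 for 3 of 9 genes with a median of -0.02. Again edgeR called 0 of 9, beside 0% of 15957 genes. In the unadjusted p 1 of 9 was under 0.05 (Rgs9, 0.27 on the log2 scale, adjusted p = 0.482), beside 10.4% of all genes.

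Levels of different genes can be compared per kilobase of exon. Over the 15 samples other than 3M replicate 4, the order was Ppp1r1b (32.9 CPM per kilobase), Penk (19.2), Pde10a (7.11), Tac1 (2.64), Syndig1l (2.36), Rgs9 (1.91), Drd1 (1.89), Drd2 (0.921) and Adora2a (0.636). Neighbours in this order overlapped in their range over samples, except for Penk with Pde10a and Pde10a with Tac1. In 3M replicate 4 the order of the levels per kilobase was different. Penk led with 104.2, followed by Ppp1r1b with 71.2, and Adora2a moved from the last to the third place with 10.3, ahead of Pde10a with 9.43. The indirect pathway genes Adora2a, Penk and Drd2 had the highest 3 ratios among the 9, ahead of the direct pathway genes Drd1 with 3.30 and Tac1 with 2.65. A ratio also depends on the level in the other libraries, which was lowest for Adora2a and Drd2. The excess over the median of the other 3M single-end libraries was 86.2 CPM per kilobase for Penk and 9.62 for Adora2a. For Tac1 it was 4.43, for Drd1 4.26 and for Drd2 3.18, so by this measure Drd2 lay below the direct pathway genes.

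In 3M replicate 4, 8 of the 9 genes were at least 2-fold above the median of the other 4 libraries of the group, where 0.912% of 15683 genes were. In each of the other 15 samples, set against its own group in the same way, 0 of the 9 genes reached 2-fold. Ranked by this ratio among 15683 genes, Adora2a was at place 1, Penk at 5, Drd2 at 13, Drd1 at 21, Syndig1l at 39, Tac1 at 49, Ppp1r1b at 81 and Rgs9 at 97, with Pde10a at 1043. The median ratio of all genes in this library was 1.01. It was known beforehand that striatal genes are high in this library, so these values describe it and no test was made.

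Further genes of striatal projection neurons were looked at in the same library. Of 30 listed, 29 were found and 28 were expressed enough to be compared, of which 7 were at least 2-fold higher in 3M replicate 4 and 24 lay above 1, with a median ratio of 1.38. Among these, and named here after their values were seen, were Sh3rf2 (4.61), Foxp2 (4.54), Six3 (3.59), Scn4b (3.08), Slc35d3 (3.06) and Gpr6 (2.80). Scn4b encodes a sodium channel subunit and Foxp2 and Six3 encode transcription factors. The most abundant genes of the list, Gng7 and Adcy5, which encode a G protein subunit and an adenylyl cyclase, were at 249.6 CPM beside 217.1 to 247.4 and at 269 CPM beside 171 to 227 CPM in the other 3M libraries, ratios of 1.10 and 1.31. The 4 genes with a ratio under 1 were Actn2 (0.995), Bcl11b (0.877), Ebf1 (0.863) and Oprm1 (0.709), which are likewise named after their values were seen.

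**Figure D3:**
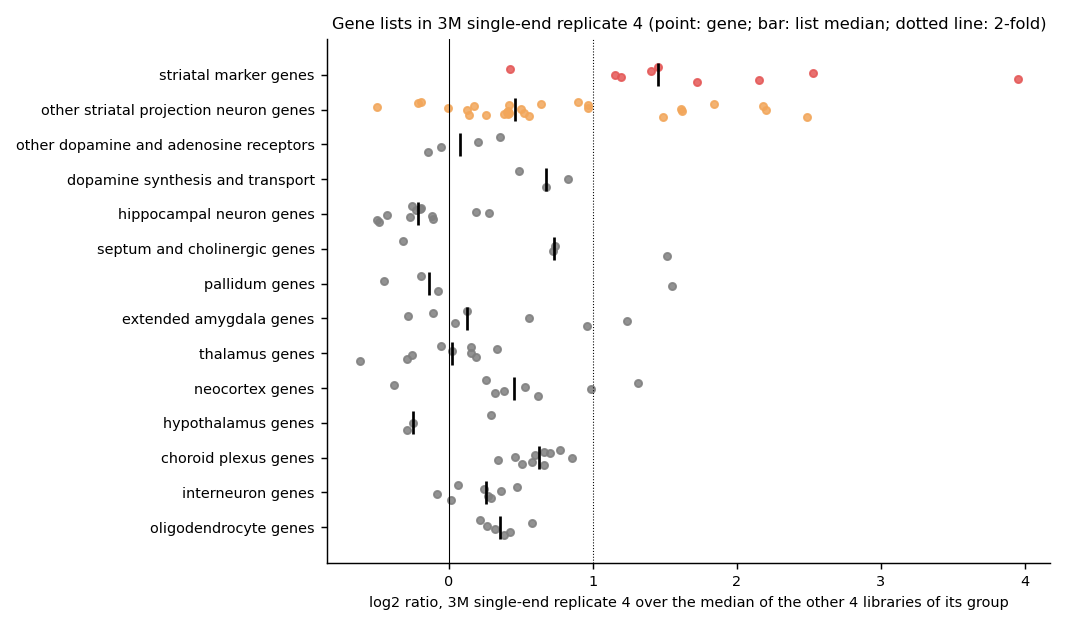
Log2 ratio of each gene in 3M single-end replicate 4 over the median of the other 4 libraries of its group (x axis) for 14 gene lists, with a point per gene, a bar at the list median, and a dotted line at 2-fold. The marker genes have a median ratio of 2.74 and 8 of 9 lie beyond the dotted line, the hippocampal neuron genes have a median ratio of 0.863, and no other list has more than 7 genes beyond it.

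The label of the tissue was checked against 12 genes of hippocampal neurons. These were present in all libraries, with a summed level of 1521 to 1848 CPM in the 16 libraries other than 3M replicate 4 and of 1385 CPM in that library, the lowest of the 17. In it 0 of 12 were at least 2-fold higher and 2 lay above 1, with a median ratio of 0.863. Prox1, a transcription factor of dentate granule cells, and C1ql2, a secreted synaptic protein of the same cells, were at 90.0 and 68.3 CPM in replicate 4, below the 120.5 to 143.9 and 91.5 to 104.5 CPM of the other 3M libraries. The most abundant, Zbtb20 and Cabp7, were at 293 and 227.5 CPM, below the other 3M libraries as well. Hippocampal neuron genes and marker genes thus moved in opposite directions in this library, and the part of the one in the other was not tested.

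Markers of other tissue near the hippocampus or striatum were read in the same way. Of 8 neocortex genes, 1 was at least 2-fold higher in 3M replicate 4 (Rspo1, 2.49) and 7 lay above 1, and their sum of 423 CPM exceeded the 217.3 to 328.6 CPM of all other libraries. Tbr1 and Cux1, the most abundant by the mean over all samples, were at 88.6 and 66.2 CPM in replicate 4, and Lamp5 was at 97.9 CPM there. The 6 oligodendrocyte genes all lay above 1 with a median ratio of 1.28 and a sum of 7343 CPM, led by Mbp with 2892 CPM, against 4189 to 7210 CPM elsewhere. The 8 interneuron genes had a median of 1.20 and 0 at 2-fold, and Gad1 and Gad2 were at 403 and 277 CPM. Markers of neocortex, oligodendrocytes and interneurons were thus also highest in sum in this library, and their part in the level of the 9 genes was not tested.

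Choroid plexus genes varied widely between libraries, and 3M replicate 4 stayed within their range. All 10 lay above 1 there with a median of 1.55 and 0 at 2-fold, and Ttr was at 7222 CPM beside 1833 to 7661 CPM in the other 3M single-end libraries, and Enpp2 at 4294 beside 1075 to 4892 CPM. The 9 thalamus genes with enough counts had a median of 1.02 and 0 at 2-fold, with Rora at 66.1 and Calb2 at 37.0 CPM. Of 11 hypothalamus genes 3 could be compared, with a median of 0.841 and 0 at 2-fold, and Hdc and Pomc, the most abundant by the mean over all samples, were at 6.04 and 1.07 CPM.

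Among genes of the ventral forebrain, 1 of 4 septum and cholinergic genes was at 2-fold, Slc5a7, the choline transporter, at 2.51 CPM (ratio 2.86, inside the 0.317 to 2.71 CPM of the others), and the median was 1.66. Chat, the enzyme of acetylcholine synthesis, had too few counts for a ratio and was at 1.59 CPM, above the 0.0352 to 0.739 CPM of the other 3M single-end libraries. The most abundant of this list, Trpc4 and Zic1, were at 43.4 and 44.3 CPM, with ratios of 0.804 and 1.65. Of 4 pallidum genes 1 was at 2-fold, Nkx2-1 with 2.93, while Etv1 and Lhx6 were at 48.4 and 22.7 CPM and the median was 0.913. Of 7 extended amygdala genes 1 was at 2-fold, the neuropeptide gene Cartpt with 2.36, while Prkcd and Dlk1 were at 38.6 and 15.9 CPM and the median was 1.09.

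Of the receptors related to the 3 receptor genes, those that could be compared were not 2-fold higher in 3M replicate 4. Of 6 other dopamine and adenosine receptors 4 could be compared there, with 0 at 2-fold, 2 above 1 and a median of 1.06. Adora1, which encodes the adenosine receptor A1 of hippocampal neurons, was at 307 CPM beside 293 to 336 CPM in the other 3M libraries, and Drd5 was at 8.81 beside 7.99 to 11.1 CPM. Drd3 and Drd4 were near 0 in all libraries, with 14 and 35 counts over all 17. Genes of dopamine synthesis and transport mark the axons' source and not the striatal neurons themselves. Of these 4, 3 could be compared, with 0 at 2-fold and a median of 1.60, and Ddc was at 9.68 CPM, above the 4.91 to 5.72 CPM of the other 3M single-end libraries, and Slc18a2 at 7.42 CPM, inside their 4.38 to 9.02 CPM. Th, the first enzyme of dopamine synthesis, was at 1.33 CPM, above their 0.731 to 1.05 CPM, and the dopamine transporter gene Slc6a3 at 0.307 CPM, inside its range of 0.274 to 0.422 CPM in the other 3M single-end libraries.

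With age, few genes of these lists passed the test. Of the 28 further striatal genes tested, edgeR called 0 at 24M with all 3M libraries (median log2 fold change -0.27). DESeq2 called Pdyn, beside 2.5% of the genes for which it gave an adjusted p. In the unadjusted p of edgeR 17 were under 0.05, beside 26.1% of all genes, and 16 of the 17 had a log2 fold change below 0. Without replicate 4 edgeR called 0 (median -0.17) and 12 had an unadjusted p under 0.05, 11 of them below 0, beside 23.4% of all genes. At 29M the median log2 fold change of the 28 genes was -0.05, beside -0.0021 over all genes tested.

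Of the other lists, 3 of 8 neocortex genes were called lower at 24M by edgeR, beside 1.98% of all genes. DESeq2 called 4 of the 8, and without 3M replicate 4 edgeR called 1, beside 1.23% of all genes. Among the 3, Cux2 and Lamp5 had log2 fold changes of -0.53 and -0.65, and neither was called without that library. With 1 sample left out in turn, Cux2 was called in 4 of 10 fits and Lamp5 in 2, and DESeq2 also called both, and Rspo1 in addition (-1.41 by edgeR). The extended amygdala list had Calcrl, a peptide receptor subunit, higher at 24M by 0.70 (adjusted p = 0.0048), a call that held in all 10 fits that left out 1 sample, while the median of the list was -0.43. DESeq2 called Calcrl and also Cartpt and Tac2, whose log2 fold changes by edgeR were -0.86 and -0.68. Ddc had 0.33 at 24M with all 3M libraries (adjusted p = 0.228, edgeR) and was called higher without replicate 4, with 0.54. In the remaining 9 lists edgeR and DESeq2 each called 0 of 60 genes tested at 24M and 0 of 58 at 29M. In the unadjusted p of edgeR 10 of the 60 were under 0.05 at 24M, beside 26.1% of all genes. At 29M 13 of the 58 were, beside 17.3% of all genes.

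**Figure D4:**
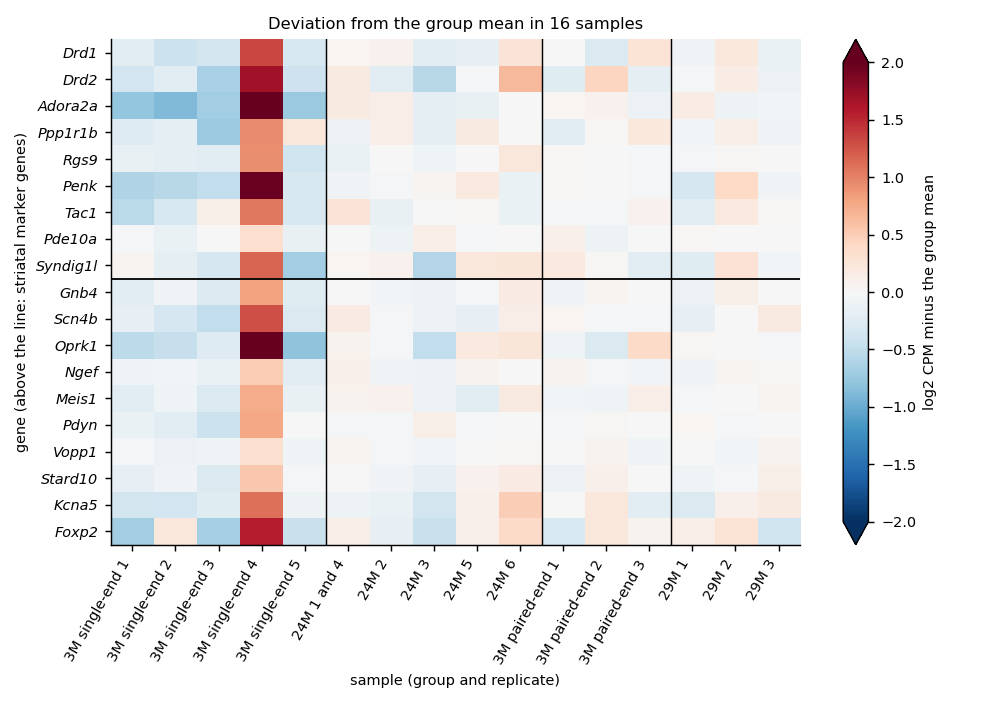
Deviation of log2 CPM from the mean of the sample's own group (colour, scale ending at 2 in either direction) for the 9 marker genes above the line and the 10 genes most like them below it, in the 16 samples on the x axis. The column of 3M single-end replicate 4 is red for the 9 marker genes and the 10 like them, and in every other sample 0 of the 9 marker genes were 2-fold above the rest of their group.

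The genes whose level varied most like the marker genes were found by Pearson's r over the 16 samples between a gene's log2 CPM and the mean of the 9, both centred on each group's mean, among 14576 genes with at least 1 CPM on average. They were Gnb4 (0.973), Scn4b (0.960), Oprk1 (0.951), Ngef (0.939), Meis1 (0.915), Pdyn (0.895), Vopp1 (0.889), Stard10 (0.881), Kcna5 (0.880) and Foxp2 (0.877). Of these 10, 3 were in the list of further striatal genes, Scn4b, Foxp2 and Pdyn, the last of which encodes prodynorphin, a peptide precursor of direct pathway neurons. Oprk1, the receptor of dynorphin, was at 8.04 CPM in 3M replicate 4 and between 0.986 and 1.48 CPM in the other 3M single-end libraries. Gnb4 encodes a G protein subunit, Kcna5 a potassium channel, Meis1 a transcription factor and Ngef an exchange factor for small GTPases.

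This likeness rested largely on 1 library. Over the 15 samples without 3M replicate 4, r was 0.762 for Gnb4, 0.401 for Scn4b, 0.478 for Oprk1 and 0.534 for Ngef. It was 0.361 for Meis1, -0.259 for Pdyn, 0.155 for Vopp1, 0.518 for Stard10, 0.660 for Kcna5 and 0.586 for Foxp2. Of the 10 genes, 0 stayed among the 10 most alike. The 9 marker genes themselves showed the same. Their 36 pairwise correlations had a median of 0.797 with all 36 above 0 over 16 samples, and a median of 0.00333 with 18 above 0 over the other 15 samples. The 36 pairs share the same samples and depths, and the coefficients are descriptions.

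Among the 10 alike genes, Ngef was called lower at 24M (log2 fold change -0.52, adjusted p = 0.0255 by edgeR), and in 6 of the 10 fits that left out 1 sample. Without 3M replicate 4 it was -0.37 (adjusted p = 0.00605), under the fold threshold. Gnb4 had -0.63 at 24M (adjusted p = 0.0657), -0.36 without replicate 4 (adjusted p = 0.0321) and was called at 29M with -0.51 (adjusted p = 0.00528, edgeR), though not without 3M paired-end replicate 2 or 29M replicate 1. Over the 6 fits that left out 1 library it lay between -0.57 and -0.45 with a largest adjusted p of 0.0377, so the lost calls missed the fold threshold only. Oprk1 moved from -0.19 to 0.83 at 24M when replicate 4 was left out (adjusted p = 0.858 and 0.0488), and the second value passed the test, with the 24M samples between 1.52 and 2.71 CPM. By DESeq2, with all libraries, Gnb4, Ngef and Pdyn were called at 24M and Gnb4 at 29M. The other 6 were called by neither tool at either age.

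Across the whole experiment, 100 genes were called lower and 210 higher at 24M with all 3M libraries, and 52 lower and 143 higher without replicate 4, with 46 lower and 124 higher calls in both. Of the 100 lower genes, 8 were at least 2-fold higher in 3M replicate 4, and of the 54 lower calls that were lost without it, 5 were, beside 0.912% of all genes tested. Totals of calls with another sample left out are not given here, so the loss is not set apart from that of a smaller group. None of the 9 marker genes was among these calls.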

How the data were processed

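PolyA RNA of hippocampus was sequenced in 17 libraries. According to the submitters' processing notes, the authors aligned reads with STAR 2.3.0 to GRCm38.p2 and counted them with HTSeq, and they deposited raw counts per gene and library without normalization. No source used here names the annotation for counting. Of 38355 identifiers, 36602 were named from GENCODE M21 (GRCm38), which also gave coordinates and exon lengths. Lines that name no gene stayed out of totals and tests. Among reads on genes, ambiguous or on no feature, the last made up 11.2% to 18.2%.

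The deposited counts entered edgeR 4.0.16 (quasi-likelihood F test, TMM, default filter on low counts) in R 4.3.3, each aged group against the 3M group of its library type, with Benjamini-Hochberg adjustment over all genes tested. Calls needed an adjusted p up to 0.05 together with a log2 fold change of 0.5 or more in size. The difference of the effects was tested in 1 fit of all 4 groups. A standard error is the size of the log2 fold change over the root of F. All fits were tested on simulated data. DESeq2 1.42.0 was an alternative, as were its size factors, no filter, a stricter filter, 1 fit of all groups, the replicate number as a block, no fold change threshold, the 24M pair kept apart and each sample left out. Ratios of a library to its group use CPM with a comparison threshold of 2-fold, over genes that passed the filter. Intervals of counts cover counting error only.

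The 9 marker genes, the 14 lists and the tests were chosen with earlier results of these data known, including the high level of striatal genes in 3M single-end replicate 4. Named genes were the 9 markers, from each other list the genes called and the 2 most abundant, and the 10 genes with the largest r with the markers' mean log2 CPM (TMM, prior count 2). A few of the genes this rule names are left out here. Further names were chosen after their values were seen, as the text says.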

Additional observations from a re-analysis of the deposited data

Results flagged for a closer look

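The highest or lowest sample of each group of 5 was compared with the rest by its gap to the nearest sample over the range of the group, for the 9 marker genes and their sum in 20 groups. Groups of 3 were not examined. In 9 groups a sample lay beyond the 95% limit of 0.71, and in all 9 it was 3M single-end replicate 4. Chance gives about 1 in 20, but the high striatal level of this library was known when the genes were chosen, so these values describe it and are no test. The gap over range was 0.939 for Drd1, 0.908 for Drd2, 0.992 for Adora2a, 0.876 for Rgs9, 0.957 for Penk, 0.730 for Tac1, 0.791 for Pde10a, 0.748 for Syndig1l and 0.872 for the sum of the 9 genes. The 9 groups share this library, so they are not separate observations. Ppp1r1b was the marker gene for which this library did not pass the limit, with 208.3 CPM beside 63.0 to 124 CPM.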

How the results depend on the processing

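At 24M, 0 marker genes were called, and 1, Rgs9, was called under DESeq2 (log2 fold change -0.63) and with all 4 groups in 1 fit (-0.64), and without 3M single-end replicate 5 (-0.74). Leaving out each sample gave counts of 0 to 1. The cause was not tested. At 29M and for the difference of the effects, 0 of 9 were called under all alternatives run, where leaving out each sample also gave 0 to 0. The median log2 fold change at 24M, -0.47, lay between -0.626 and 0.0232 with each sample left out, the last without 3M single-end replicate 4. The same ranges at 24M were -0.55 to 0.10 for Drd1, -0.91 to 0.0233 for Drd2, -0.41 to 0.0722 for Ppp1r1b, -1.01 to 0.11 for Penk, -0.49 to 0.0077 for Tac1 and -0.12 to 0.0232 for Pde10a, all reversed only without that library. At 29M they were -0.14 to 0.16 for Drd1, -0.34 to 0.0872 for Drd2, -0.0139 to 0.20 for Ppp1r1b, -0.13 to 0.24 for Penk, -0.087 to 0.10 for Tac1 and -0.0809 to 0.0178 for Pde10a. Of the 10 genes most like the markers, 0 remained without 3M single-end replicate 4 and 6 with Spearman's rho.

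With the replicate number as a block, the median of the marker genes at 24M was 0.0183, with Drd1 at 0.0315, Ppp1r1b at 0.10, Penk at 0.13, Tac1 at 0.0462 and Pde10a at 0.0183, and with Rgs9 at -0.36, Adora2a at -0.25, Drd2 at -0.16 and Syndig1l at -0.10. In that fit 3M single-end replicate 4 has no partner, since 24M replicate 4 entered as part of the mean with replicate 1. Samples with the same number did not deviate together (r between -0.266 and 0.09 over 12751 genes in the single-end libraries, and between -0.147 and 0.092 in the paired-end libraries), so the numbers were not taken to pair the samples. The block changed no call of a marker gene. Depth limits Adora2a and Drd2 most, with as few as 16 and 23 counts in a library.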
